A study of Mus musculus with 15 samples.

Results

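The genes described here are the matrix metalloproteases, the ADAM and ADAMTS proteases and the TIMP inhibitors of the mouse optic nerve, taken as every listed gene whose symbol begins with Mmp or Adam and a number, begins with Adamts, or is Timp1 to Timp4. They were 44 of the 14237 genes in the table: 13 Mmp, 11 Adam, 11 Adamts, 5 Adamtsl and 4 Timp genes. All 44 were among the 14194 genes tested. The RNA came from the optic nerves of C57BL/6J adults, in 3 groups of 5 biological replicates, numbered 2 to 6. In the first group the eye had received AAV2 (an adeno-associated virus, used to deliver a gene) with a secretable form of CNTF (ciliary neurotrophic factor, a cytokine), and the nerve was crushed, abbreviated crush AAV-CNTF. In the second the vector carried no cytokine and the nerve was crushed, abbreviated crush AAV-null. In the third the same empty vector was followed by a sham injury, abbreviated sham AAV-null. The vector was given into the vitreous 2 weeks before crush, and crushed nerves were collected 7 days after it; the labels state no times for the sham nerves. An injection of vector is thus common to all 3 groups, and no uninjected nerve or crushed nerve without vector was analysed here.

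Matrix metalloproteases (MMPs) are zinc enzymes, secreted or bound to the membrane, that cut collagens, laminins and other extracellular proteins. ADAM proteases sit in the cell membrane and release the outer part of growth factors, cytokines, receptors and adhesion proteins, and ADAMTS proteases are secreted and cut proteoglycans, procollagens and other matrix proteins. The 4 TIMPs bind and block these enzymes with different preferences. In an injured nerve these families are known for their part in opening the barrier between blood and nerve tissue, in the entry of white blood cells, in removal of myelin and in building the scar.

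The libraries held 23775505 to 29558299 expected counts over the listed genes in the crush AAV-CNTF group, 19918858 to 29138919 in the crush AAV-null group and 19856705 to 26411942 in the sham AAV-null group. Crush AAV-null replicate 6 stood apart, with 3.18% of listed genes at 0 against 0.976% to 2.32% in the other 14 libraries. Cntf itself averaged 5.64 ± 1.64 CPM (counts scaled to library size) in crush AAV-CNTF, 5.29 ± 3.24 CPM in crush AAV-null and 16.4 ± 5.04 CPM in sham AAV-null nerves (SD, n = 5 each); since the vector was placed in the eye, these values do not check the labels. Genes reached the table by level: FPKM (fragments scaled by transcript length and by library size) was 1 or more, for every listed gene, in 4 or 5 libraries of 1 or more of the groups. By that rule 32 of the 44 genes qualified in all 3 groups, 11 through the crushed nerves only and 1 (Adamts20) through the sham nerves only. The 11 (Adam8, Adam33, Adamts7, Adamts8, Adamts12, Adamts15, Adamtsl2, Mmp12, Mmp13, Mmp17 and Mmp25) were favoured to be higher after crush by the listing itself, and Adamts20 to be lower. Their folds and p-values against sham nerves carry that limit. The counts of genes called below are thus descriptions of what is listed, and not of whole families. The mouse annotation (GENCODE M21, mm10) has 84 genes that the name rule fits, and those not listed were not analysed here. In whole nerves, more or fewer cells of a type and more or less RNA per cell cannot be told apart.

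Per length of transcript, 2 of the 4 inhibitors, Timp2 and Timp3, had the highest means of these genes in every group, although Mmp14 lay within the spread of Timp3 in crush AAV-CNTF nerves. Timp2 had 223 ± 18.4 FPKM in crush AAV-CNTF, 225 ± 22.6 FPKM in crush AAV-null and 144 ± 14.7 FPKM in sham AAV-null nerves (mean ± SD, n = 5 each). Timp3 had 129 ± 23.6 FPKM in crush AAV-CNTF, 121 ± 3.14 FPKM in crush AAV-null and 109.9 ± 12.7 FPKM in sham AAV-null nerves. Timp1 lay within the spread of Timp3 in both crushed groups and far below it in sham nerves, at 122 ± 17.8 FPKM in crush AAV-CNTF, 119 ± 13.1 FPKM in crush AAV-null and 17.1 ± 3.05 FPKM in sham AAV-null nerves.

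Among the proteases of crushed nerves Mmp14 was highest, at 128 ± 25.7 FPKM in crush AAV-CNTF and 97.9 ± 9.52 FPKM in crush AAV-null nerves. Adam10 came next, at 78.7 ± 23.8 FPKM in crush AAV-CNTF and 76.5 ± 13.5 FPKM in crush AAV-null nerves, and Adam15 lay within 1 SD of it. Adamts4 had 31.9 ± 3.68 FPKM in crush AAV-CNTF and 37.9 ± 4.25 FPKM in crush AAV-null nerves, below both. In sham nerves Adamts4 (52.8 ± 7.44 FPKM), Adam10 (51.2 ± 14.2 FPKM) and Mmp14 (50.6 ± 11.8 FPKM) lay within 1 SD of each other, so that no order is given among them. The lowest levels in sham nerves were those of Adamts12 (0.338 ± 0.287 FPKM), Adam8 (0.208 ± 0.144 FPKM), Mmp25 (0.118 ± 0.208 FPKM) and Mmp13, which was listed at 0 in each sham library.

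**Figure D1:**
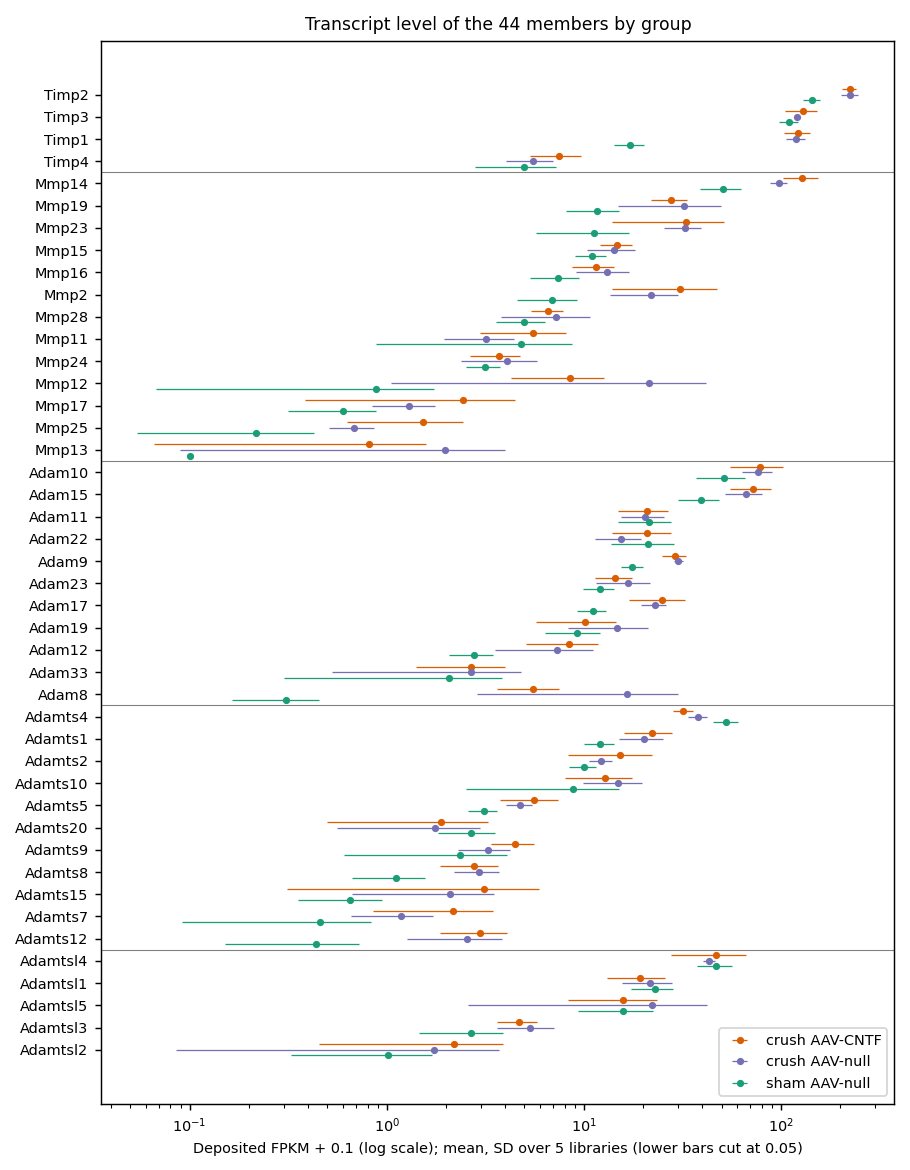
Deposited FPKM plus 0.1 on a log axis for the 44 genes, ordered by sham level within each family; points are means and bars SD over 5 libraries, with bars drawn no lower than 0.05. Timp2 and Timp3 have the highest means in every group, and Mmp13 is at 0 in sham nerves. The mean of Timp1 is 122 FPKM in crush AAV-CNTF, 119 FPKM in crush AAV-null and 17.1 FPKM in sham AAV-null nerves.

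The first comparison, crush AAV-null against sham AAV-null, asks what the injury itself changed. Of the 44 genes, 18 rose and 3 fell at an adjusted p under 0.05 (edgeR's quasi-likelihood test, Benjamini-Hochberg over all 14194 genes), which is 40.9% and 6.82% of them. Over all genes tested 14.7% rose and 12.9% fell, 27.6% in either direction. The median log2 fold change was 0.56 over the 44 genes and 0.00 over all genes tested. Of the 32 genes that qualified for listing in all 3 groups 13 rose and 3 fell, and of the 11 listed through the crushed nerves only 5 rose. The shares over all genes with the same listing are not given here, so this split has no like comparison. By family, 6 of 13 Mmp genes, 6 of 11 Adam genes, 3 of 11 Adamts genes, 1 of 5 Adamtsl genes and 2 of 4 Timp genes rose; the 3 that fell were Adam22, Adamts4 and Adamtsl1. With crush AAV-null replicate 6 left out 22 genes passed, and with replicate 3 of that group left out 19 passed.

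**Figure D2:**
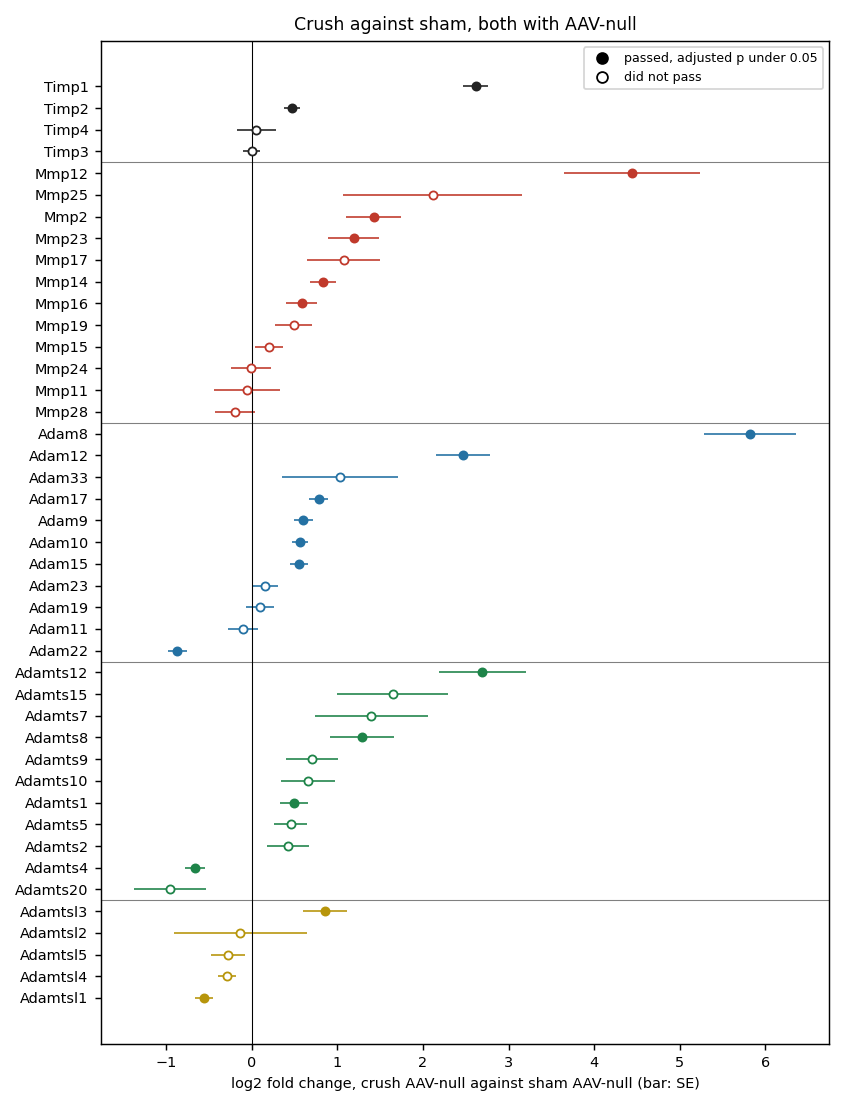
Log2 fold change of crush AAV-null against sham AAV-null nerves for 43 of the 44 genes, with the SE as bars and filled points where the adjusted p was under 0.05; Mmp13 is left out, since it had no count in sham nerves. Adam8 (5.82), Mmp12 (4.44), Adamts12 (2.70), Timp1 (2.62) and Adam12 (2.47) lie farthest to the right among those that passed, and Adam22, Adamts4 and Adamtsl1 are the filled points left of 0.

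Among the inhibitors Timp1 rose most. It lies on chromosome X (ENSMUSG00000001131, mm10 chrX:20870166-20874735) and codes for a secreted inhibitor of most MMPs that many cell types switch on in injury and inflammation. Timp1 had 89.6, 75.7, 83.1, 62.3 and 72.1 CPM in the crush AAV-CNTF nerves, 72.3, 81.2, 79.3, 76.0 and 64.0 CPM in the crush AAV-null nerves, and 13.5, 14.3, 12.7, 11.9 and 8.38 CPM in the sham AAV-null nerves. Each of the 10 crushed nerves lay above each sham nerve, and the spread within each group was small beside the gap. The log2 fold change was 2.62 ± 0.15 (SE, edgeR, adjusted p = 1.56e-10). Timp1 lies inside the gene Syn1 on the opposite strand, and whether strand was used in the counting is not stated by the labels.

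Timp2, which inhibits MMPs and also joins with Mmp14 at the cell surface to activate pro-Mmp2, was the most abundant of the 4 by FPKM. It had 719, 819, 690.2, 706 and 820.3 CPM in the crush AAV-CNTF nerves, 732, 845, 691, 729 and 786 CPM in the crush AAV-null nerves, and 575, 514, 614, 529 and 499 CPM in the sham AAV-null nerves. The crushed nerves did not overlap the sham nerves, at a log2 fold change of 0.47 ± 0.09 (SE, edgeR, adjusted p = 3.91e-04). A part of this gene holds Cep295nl on the same strand.

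Timp3 binds to the matrix and inhibits MMPs, Adam17, Adamts4 and Adamts5. Its levels were 548, 556, 713, 521 and 453 CPM in the crush AAV-CNTF nerves, 539.5, 518, 502, 550.1 and 522 CPM in the crush AAV-null nerves, and 514, 524, 579, 528 and 488 CPM in the sham AAV-null nerves. The 3 groups overlapped. The log2 fold change was 0.00 ± 0.10 (SE, edgeR, adjusted p = 0.998), with a 95% interval of -0.22 to 0.22, so a change as large as that of Timp2 lies outside the interval. Timp4, an inhibitor known from brain and heart, had 18.1, 23.0, 16.7, 19.7 and 24.5 CPM in the crush AAV-CNTF nerves, 23.0, 20.4, 14.4, 11.6 and 13.1 CPM in the crush AAV-null nerves, and 13.0, 14.6, 11.4, 24.02 and 16.3 CPM in the sham AAV-null nerves. Its groups overlapped too, with a log2 fold change of 0.06 ± 0.23 (SE, edgeR, adjusted p = 0.887). Timp3 lies inside Syn3 and Timp4 inside Syn2, both on the opposite strand.

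**Figure D3:**
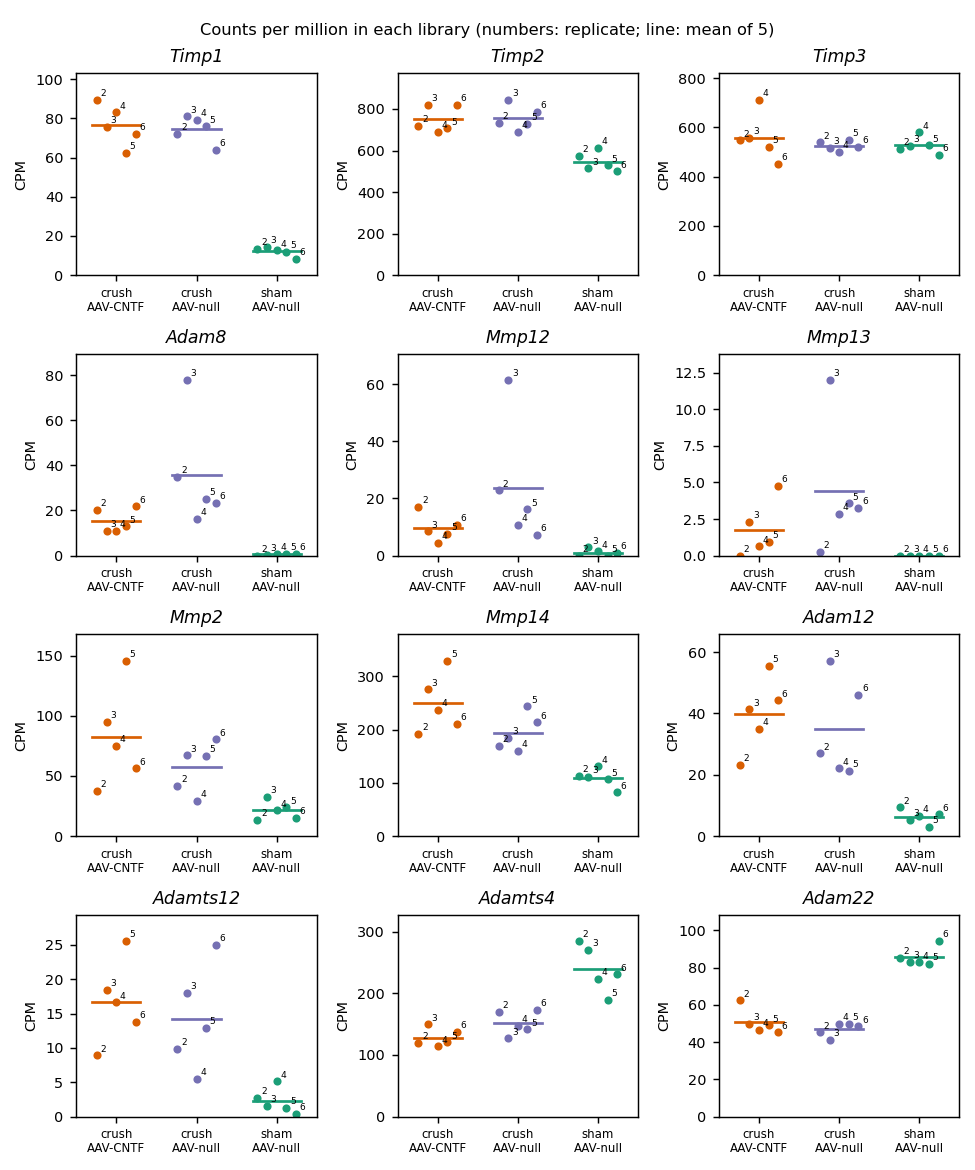
CPM of 12 of the genes in each of the 15 libraries; numbers give the replicate, lines the group mean, and every axis starts at 0. Timp1 and Timp2 separate crushed from sham nerves and Timp3 does not, crush AAV-null replicate 3 is the highest library for Adam8, Mmp12, Mmp13 and Adam12, and Adamts4 and Adam22 lie lower in all crushed nerves.

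The largest changes were in 3 genes, Adam8, Mmp12 and Mmp13, of which Adam8 and Mmp12 are known from white blood cells and tissue macrophages. All 3 met the listing level in crushed nerves only, Mmp13 in crush AAV-null nerves only, so the listing itself favoured a rise. Adam8 (chromosome 7, ENSMUSG00000025473) is a membrane protease of neutrophils, monocytes and macrophages that cuts adhesion proteins. It had 20.4, 11.1, 11.1, 13.1 and 21.9 CPM in the crush AAV-CNTF nerves, 35.1, 77.8, 16.3, 25.2 and 23.3 CPM in the crush AAV-null nerves, and 0, 0.461, 0.838, 0.912 and 0.891 CPM in the sham AAV-null nerves. All crushed nerves were above all sham nerves, and crush AAV-null replicate 3 was the highest library. The log2 fold change was 5.82 ± 0.54 (SE, edgeR, adjusted p = 7.70e-08), and without crush AAV-null replicate 3 it was 5.31 (edgeR, adjusted p = 2.08e-07). On the scale of log2(FPKM + 0.5), which understates the change of low genes, it was 4.30 (limma, adjusted p = 1.52e-06).

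Mmp12 (chromosome 9, ENSMUSG00000049723) is macrophage elastase, a secreted enzyme that cuts elastin and other matrix proteins. It had 17.1, 8.55, 4.37, 7.56 and 10.9 CPM in the crush AAV-CNTF nerves, 22.8, 61.5, 10.7, 16.2 and 7.37 CPM in the crush AAV-null nerves, and 0, 2.86, 1.54, 0 and 0.972 CPM in the sham AAV-null nerves. The crushed and sham nerves did not overlap, yet the crush AAV-null nerves ranged widely, with replicate 3 far above the other 4. The log2 fold change was 4.44 ± 0.79 (SE, edgeR, adjusted p = 2.01e-04), against 3.71 without crush AAV-null replicate 3 (edgeR, adjusted p = 0.00146) and 5.19 without sham AAV-null replicate 3 (edgeR, adjusted p = 1.26e-04). Mmp12 overlaps Mmp1b on the opposite strand over 1261 bases.

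Mmp13 (chromosome 9, ENSMUSG00000050578) is an interstitial collagenase, which opens the triple helix of fibrillar collagen. It had 0, 2.30, 0.648, 0.950 and 4.79 CPM in the crush AAV-CNTF nerves, 0.244, 12, 2.86, 3.57 and 3.28 CPM in the crush AAV-null nerves, and 0 CPM in each of the 5 sham AAV-null nerves. No count was seen in any sham library, and the crush AAV-null nerves summed to 518 counts, with replicate 3 again the highest and replicate 2 close to 0. Against a floor of 3 counts over the sham group, the mean crush AAV-null level was at least 156-fold higher, and at least 88.7-fold higher without crush AAV-null replicate 3. The floor covers counting error only, and these bounds were not tested. The test of the fitted difference between the 2 groups gave an adjusted p of 5.89e-04 (edgeR). Mmp12 and Mmp13 are neighbours, 61.0 kb apart.

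Markers of macrophages were higher in crushed nerves as well. All 10 genes of the macrophage and phagocyte list (Cd68, Lyz2, Ctsd, Gpnmb, Lgals3, Msr1, Itgax, Adgre1, Fcgr2b and Ms4a7) rose in crush AAV-null against sham AAV-null nerves. In crush AAV-CNTF against sham AAV-null nerves 9 of the 10 rose. Their summed level was 4359 to 7337 CPM in crush AAV-CNTF, 6229.9 to 10581 CPM in crush AAV-null and 922 to 1396 CPM in sham AAV-null nerves. Crush AAV-null replicate 3 was the highest library by this sum as well, but the other libraries did not follow the sum in order. Crush AAV-null replicate 6 had the second highest sum, at 86.1% of that of replicate 3, and the lowest Mmp12 of its group, at 12% of that in replicate 3. Crush AAV-null replicate 2 had 82.8% by the sum and 2.04% by Mmp13. The microglia list, of which 6 of 8 genes rose and 1 fell, summed to 1550.2 to 2087 CPM in crush AAV-CNTF, 1853 to 2562 CPM in crush AAV-null and 847 to 1064 CPM in sham AAV-null nerves. Of the 14 neutrophil genes 4 were among those tested and 3 of these rose, with a sum of 65.9 to 103 CPM in crush AAV-CNTF, 64.8 to 87.0 CPM in crush AAV-null and 28.1 to 41.1 CPM in sham AAV-null nerves. All 5 genes of a list of dividing cells rose too, from a sum of 11.3 to 28.3 CPM in sham AAV-null nerves. The limit of the listing given above holds for marker genes too, and Cdk1, Ccnb1 and Birc5 of this list were at 0 in some library. Crush AAV-null replicate 3 was the highest library for microglia and, at 334 CPM, for dividing cells, where crush AAV-CNTF replicate 4 had 333 CPM. For neutrophil genes crush AAV-CNTF replicate 2 was highest. The part of these cell types in the levels of Adam8, Mmp12 and Mmp13 was not tested.

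The stretches before the transcription start of these 3 genes and of Timp1 are shown because these genes had the largest rises among the proteases and the inhibitors. They are from RefSeq (GRCm38.p6), hold the 250 bases before an annotated start and are written 5′ to 3′ on the strand of the gene. They cover chr9:7272264-7272513 (plus strand) for Mmp13, chr9:7344147-7344396 and chr9:7347124-7347373 (plus strand) before the 2 starts of Mmp12, chr7:139992563-139992812 (minus strand) for Adam8 and chrX:20869916-20870165 (plus strand) for Timp1. Capitals mark matches to an AP-1 motif (TGANTCA) or a PU.1 motif (GAGGAAGT), searched on both strands together with a STAT motif (TTCNNNGAA).
Mmp13: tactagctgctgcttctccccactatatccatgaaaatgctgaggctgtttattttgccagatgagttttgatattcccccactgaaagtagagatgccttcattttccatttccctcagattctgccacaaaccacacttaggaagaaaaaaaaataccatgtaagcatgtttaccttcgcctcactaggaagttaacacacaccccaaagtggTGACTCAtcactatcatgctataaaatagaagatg
Mmp12, first start: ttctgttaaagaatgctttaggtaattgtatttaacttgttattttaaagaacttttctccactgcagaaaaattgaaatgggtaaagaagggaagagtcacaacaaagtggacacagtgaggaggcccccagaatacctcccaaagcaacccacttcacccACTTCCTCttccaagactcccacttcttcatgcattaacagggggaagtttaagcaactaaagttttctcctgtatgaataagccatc
Mmp12, second start: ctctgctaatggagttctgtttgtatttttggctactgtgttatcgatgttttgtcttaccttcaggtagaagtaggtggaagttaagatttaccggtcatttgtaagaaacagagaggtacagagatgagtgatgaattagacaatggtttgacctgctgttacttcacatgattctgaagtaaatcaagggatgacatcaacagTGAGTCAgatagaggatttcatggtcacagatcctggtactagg
Adam8: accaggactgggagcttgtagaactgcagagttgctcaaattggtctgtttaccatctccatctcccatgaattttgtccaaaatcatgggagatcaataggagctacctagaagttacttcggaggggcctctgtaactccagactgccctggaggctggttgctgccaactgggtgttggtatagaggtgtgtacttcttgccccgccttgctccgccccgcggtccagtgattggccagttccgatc
Timp1: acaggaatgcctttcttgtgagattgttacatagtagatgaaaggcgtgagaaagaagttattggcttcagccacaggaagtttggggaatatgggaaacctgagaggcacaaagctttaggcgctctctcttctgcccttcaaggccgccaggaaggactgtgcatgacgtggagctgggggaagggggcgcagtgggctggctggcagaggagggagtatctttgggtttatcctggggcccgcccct
Mmp13 held TGACTCA at 35 to 29 bases before its start. Before its second start Mmp12 held TGAGTCA at 44 to 38 bases, and before its first start the reverse complement of the PU.1 motif, ACTTCCTC, at 88 to 81 bases. The windows of Adam8 and Timp1 held none of the 3 motifs in these spellings. RefSeq windows were found for 29 of the 44 genes. The AP-1 motif was in 3 of these 29 (Adam19, Mmp12 and Mmp13), or 10.3%, against 7.82% of 27025 genes. The STAT motif was in 1 (Mmp23), or 3.45%, against 8.13%, and the PU.1 motif in 1 (Mmp12), or 3.45%, against 2.79%. These matches describe the letters only.

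Mmp14, Mmp2, Mmp16 and Mmp23 rose by less than Adam8, Mmp12 and Mmp13. Mmp14 (membrane type 1 MMP, chromosome 14, ENSMUSG00000000957) is a collagenase held in the membrane that activates pro-Mmp2. It had 193, 276, 237, 329.8 and 211 CPM in the crush AAV-CNTF nerves, 169.9, 184, 161, 244 and 214 CPM in the crush AAV-null nerves, and 113, 112, 131, 107 and 81.9 CPM in the sham AAV-null nerves. Crushed and sham nerves did not overlap, and the log2 fold change was 0.84 ± 0.15 (SE, edgeR, adjusted p = 2.02e-04). Mmp2 (gelatinase A, chromosome 8) is secreted mainly by cells of connective tissue. It had 37.7, 95.3, 75.1, 146 and 56.3 CPM in the crush AAV-CNTF nerves, 42.0, 67.2, 29.4, 66.8 and 80.5 CPM in the crush AAV-null nerves, and 13.5, 32.6, 21.5, 23.9 and 15.1 CPM in the sham AAV-null nerves. Crush AAV-null replicate 4 lay below the highest sham nerve, so these 2 groups overlapped, and the log2 fold change was 1.42 ± 0.32 (SE, edgeR, adjusted p = 0.00186).

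Mmp16 is another membrane-type MMP, and Mmp23 an unusual one anchored by its N-terminal part. Mmp16 had 25.4, 21.4, 18.3, 19.9 and 29.7 CPM in the crush AAV-CNTF nerves, 19.7, 26.6, 21.6, 24.4 and 22.2 CPM in the crush AAV-null nerves, and 15.6, 12.1, 12.6, 19.5 and 16.7 CPM in the sham AAV-null nerves. Crush AAV-null nerves were just above sham nerves, at a log2 fold change of 0.58 ± 0.18 (SE, edgeR, adjusted p = 0.0181); the adjusted p was 0.0508 without crush AAV-null replicate 3 and 0.0503 without sham AAV-null replicate 3 (edgeR). Mmp23 had 14.0, 19.3, 9.84, 31.3 and 12.6 CPM in the crush AAV-CNTF nerves, 24.01, 19.2, 13.2, 18.8 and 14.4 CPM in the crush AAV-null nerves, and 9.16, 8.58, 8.19, 9.60 and 3.76 CPM in the sham AAV-null nerves. The crushed nerves all lay above the sham nerves, of which replicate 6 was lowest, at a log2 fold change of 1.19 ± 0.30 (SE, edgeR, adjusted p = 0.005).

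The other 3 MMPs that the rule names did not pass between crush AAV-null and sham AAV-null nerves. Mmp19, a secreted MMP, had 53.8, 45.3, 34.1, 37.8 and 35.9 CPM in the crush AAV-CNTF nerves, 34.1, 30.7, 24.5, 21.6 and 45.6 CPM in the crush AAV-null nerves, and 14.8, 25.3, 32.0, 16.4 and 22.9 CPM in the sham AAV-null nerves. By CPM its crush AAV-null and sham nerves overlapped, while the crush AAV-CNTF nerves lay above all sham nerves. By FPKM the picture differed: crush AAV-null nerves (16.0 to 59.2 FPKM) did not overlap sham nerves (7.86 to 15.8 FPKM). Their mean was 32.2 ± 17.3 FPKM, against 27.6 ± 5.67 FPKM in crush AAV-CNTF nerves (SD, n = 5 each). Between crush AAV-null and sham AAV-null nerves the log2 fold change was 0.49 ± 0.22 (SE, edgeR, adjusted p = 0.109). Mmp17, which is tied to the membrane by a lipid anchor, had 14.4, 8.69, 6.51, 6.88 and 7.43 CPM in the crush AAV-CNTF nerves, 8.26, 8.58, 6.37, 2.75 and 9.68 CPM in the crush AAV-null nerves, and 1.47, 6.14, 4.42, 1.56 and 3.32 CPM in the sham AAV-null nerves. Here too the crush AAV-null and sham nerves overlapped, at a log2 fold change of 1.07 ± 0.43 (SE, edgeR, adjusted p = 0.0695), and each crush AAV-CNTF nerve lay above each sham nerve. Mmp25, also lipid-anchored and known from neutrophils, had 4.89, 3.81, 8.55, 3.49 and 0.998 CPM in the crush AAV-CNTF nerves, 1.17, 2.04, 1.84, 2.48 and 1.32 CPM in the crush AAV-null nerves, and 1.67, 0, 0, 0.375 and 0 CPM in the sham AAV-null nerves. Sham replicate 2 lay inside the crush AAV-null range while the other sham nerves were at or near 0 (log2 fold change 2.12 ± 1.05 SE, edgeR, adjusted p = 0.148). The remaining Mmp genes, Mmp11, Mmp15, Mmp24 and Mmp28, had log2 fold changes of -0.19 to 0.20 and did not pass.

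Adam12 and Adamts12 rose as well. Adam12 (chromosome 7, ENSMUSG00000054555) is a protease of developing and regenerating muscle and of activated fibroblasts. It had 23.2, 41.4, 35.1, 55.7 and 44.3 CPM in the crush AAV-CNTF nerves, 27.0, 57.3, 22.1, 21.3 and 46.2 CPM in the crush AAV-null nerves, and 9.36, 5.40, 6.52, 2.95 and 7.12 CPM in the sham AAV-null nerves. All crushed nerves lay above all sham nerves, with crush AAV-null replicates 3 and 6 and crush AAV-CNTF replicate 5 the highest. The log2 fold change was 2.47 ± 0.32 (SE, edgeR, adjusted p = 5.28e-06), against 1.32 by limma on log2(FPKM + 0.1), at an adjusted p of 0.0165. Adamts12 (chromosome 15) cuts cartilage oligomeric matrix protein. It had 8.89, 18.4, 16.6, 25.6 and 13.8 CPM in the crush AAV-CNTF nerves, 9.88, 18.04, 5.51, 12.9 and 25 CPM in the crush AAV-null nerves, and 2.70, 1.57, 5.12, 1.23 and 0.405 CPM in the sham AAV-null nerves. Here too crushed and sham nerves did not overlap, at a log2 fold change of 2.70 ± 0.50 (SE, edgeR, adjusted p = 3.27e-04) and of 1.76 by limma on log2(FPKM + 0.5), at an adjusted p of 0.00206.

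Markers of fibroblasts and the nerve sheath also rose. Of the 9 genes of the list (Col1a1, Col1a2, Col3a1, Dcn, Lum, Pdgfrb, Fn1, Postn and Lox) 7 rose in crush AAV-null against sham AAV-null nerves, where Dcn and Pdgfrb did not pass. In crush AAV-CNTF against sham AAV-null nerves 8 of the 9 rose. The summed level was 7387 to 18003 CPM in crush AAV-CNTF, 7683 to 14637 CPM in crush AAV-null and 1720.4 to 4936 CPM in sham AAV-null nerves. The highest library of this list, crush AAV-CNTF replicate 5, was also the highest for Mmp2, Mmp14 and Adamts12, and for Adamts2 and Adamts15, which did not pass in this comparison. It was the highest as well for the sums of the endothelial list (615 CPM) and of the pericyte and smooth muscle list (471 CPM). Other libraries did not follow the fibroblast sum in order. Crush AAV-CNTF replicate 3 had 97.1% of the highest by that sum, 65.2% by Mmp2 and 42.75% by Adamts15. Crush AAV-null replicate 6 had 77.4% by that sum, 15.5% by Adamts15 and 97.8% by Adamts12. Adam12 was highest in crush AAV-null replicate 3, where the fibroblast sum was 81.3% of the highest, and stood at 97.1% in crush AAV-CNTF replicate 5. The part of these cell types in the levels of Mmp2, Mmp14, Adam12 and Adamts12 was not tested.

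**Figure D4:**
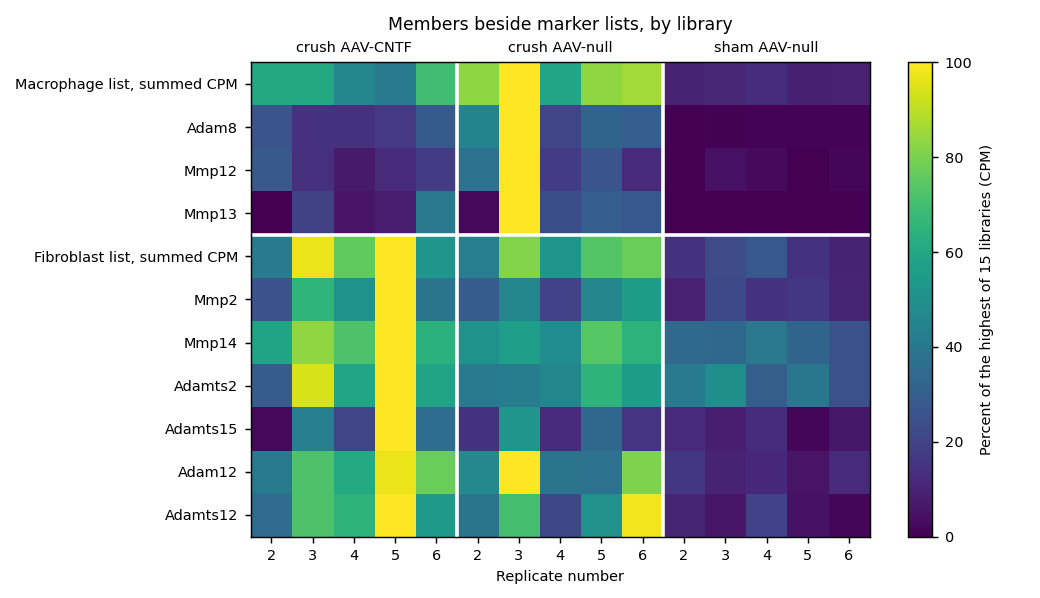
Summed CPM of the macrophage and the fibroblast marker lists and CPM of 9 of the genes in each library, as a percentage of the highest of the 15 libraries. Crush AAV-null replicate 3 is at 100% for the macrophage sum, Adam8, Mmp12 and Mmp13, and crush AAV-CNTF replicate 5 is at 100% for the fibroblast sum, Mmp2, Mmp14, Adamts2, Adamts15 and Adamts12.

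Adam10, Adam17, Adam9 and Adam15 rose too, by less than Adam8 and Adam12. Adam10 cuts Notch receptors, amyloid precursor protein and cadherins, and had 214 ± 13.5 CPM in crush AAV-null and 145 ± 21.9 CPM in sham AAV-null nerves (SD, n = 5; log2 fold change 0.57 ± 0.09 SE, edgeR, adjusted p = 1.04e-04). Adam17, which releases tumor necrosis factor and ligands of the epidermal growth factor receptor, had 79.8 ± 6.89 CPM in crush AAV-null and 46.3 ± 4.83 CPM in sham AAV-null nerves (SD, n = 5; log2 fold change 0.78 ± 0.11 SE, edgeR, adjusted p = 1.74e-05). Adam9 and Adam15 are widely expressed members of the same class. Adam9 had 109 ± 9.43 CPM in crush AAV-null and 72.0 ± 8.37 CPM in sham AAV-null nerves (SD, n = 5; log2 fold change 0.60 ± 0.11 SE, edgeR, adjusted p = 2.19e-04), and Adam15 had 128 ± 16.5 CPM in crush AAV-null and 87.0 ± 8.57 CPM in sham AAV-null nerves (SD, n = 5; log2 fold change 0.55 ± 0.10 SE, edgeR, adjusted p = 3.44e-04). For each of the 4 genes no crush AAV-null nerve overlapped a sham nerve. Adam10 did not pass by limma on log2(FPKM + 0.5), at 0.60 and an adjusted p of 0.0670. Adam19 and Adam33, also proteases, and Adam11 and Adam23, which lack the catalytic residues, did not pass, at log2 fold changes of -0.10 to 1.03.

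The ADAMTS proteases that cut proteoglycans did not all move one way. Adamts1 cuts aggrecan and versican and had 84.2 ± 15.4 CPM in crush AAV-null and 59.7 ± 10.7 CPM in sham AAV-null nerves (SD, n = 5; log2 fold change 0.50 ± 0.16 SE, edgeR, adjusted p = 0.0256); it no longer passed without crush AAV-null replicate 3 or 5 or sham AAV-null replicate 5 or 6, with adjusted p values of 0.0658 to 0.0764. Adamts8, a less studied member of this group, had 12.5, 8.69, 8.52, 9.54 and 4.55 CPM in the crush AAV-CNTF nerves, 6.06, 8.09, 12.01, 9.16 and 11.2 CPM in the crush AAV-null nerves, and 5.10, 5.17, 4.61, 3.00 and 1.17 CPM in the sham AAV-null nerves. No crush AAV-null nerve overlapped a sham nerve, although crush AAV-CNTF replicate 6 did (log2 fold change 1.29 ± 0.38 SE, edgeR, adjusted p = 0.0133). Adamts15, its neighbour on chromosome 9 at 20.1 kb, had 0.881, 17.5, 8.48, 40.9 and 14.6 CPM in the crush AAV-CNTF nerves, 6.01, 21.5, 5.09, 13.9 and 6.33 CPM in the crush AAV-null nerves, and 4.80, 3.37, 5.31, 0.697 and 2.63 CPM in the sham AAV-null nerves. The values ran over a wide range within each crushed group, and crush AAV-CNTF replicate 2 was as low as the sham nerves (log2 fold change 1.65 ± 0.65 SE, edgeR, adjusted p = 0.0671). Adamts7, which cuts cartilage oligomeric matrix protein as Adamts12 does, had 3.61, 9.79, 6.51, 13.0 and 6.43 CPM in the crush AAV-CNTF nerves, 2.84, 5.87, 5.94, 3.25 and 2.20 CPM in the crush AAV-null nerves, and 1.27, 1.89, 3.21, 0 and 1.21 CPM in the sham AAV-null nerves; its crush AAV-null and sham nerves overlapped (log2 fold change 1.40 ± 0.66 SE, edgeR, adjusted p = 0.126).

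Adamts4 fell. It is an aggrecanase (chromosome 1, ENSMUSG00000006403, mm10 chr1:171250421-171260637) that in mouse brain is known from oligodendrocytes. Adamts4 had 152 ± 19.7 CPM in crush AAV-null and 239.9 ± 38.1 CPM in sham AAV-null nerves (SD, n = 5). No crushed nerve reached the lowest sham nerve, at a log2 fold change of -0.66 ± 0.12 (SE, edgeR, adjusted p = 2.14e-04). Adam22, a catalytically inactive ADAM that serves as a receptor for Lgi proteins on neurons and along axons, also fell, with 46.9 ± 3.70 CPM in crush AAV-null and 85.4 ± 5.08 CPM in sham AAV-null nerves (SD, n = 5) and a log2 fold change of -0.87 ± 0.11 (SE, edgeR, adjusted p = 4.00e-06). Adamtsl1 (also called punctin), a secreted protein without a protease domain, had 75.8 ± 7.12 CPM in crush AAV-null and 112 ± 1.79 CPM in sham AAV-null nerves (SD, n = 5) and a log2 fold change of -0.56 ± 0.10 (SE, edgeR, adjusted p = 3.12e-04); it shares 125024 bases of its locus with Sh3gl2 on the same strand. On the scale of the deposited FPKM with 0.5 added, Adamts4 kept its call, while Adam22 (-0.42, limma, adjusted p = 0.305) and Adamtsl1 (-0.09, limma, adjusted p = 0.835) did not pass.

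Adamts20, known in mouse for pigment cell development, had 7.77, 2.51, 7.48, 3.31 and 4.23 CPM in the crush AAV-CNTF nerves, 11.1, 8.09, 4.74, 5.15 and 2.27 CPM in the crush AAV-null nerves, and 16.1, 11.6, 5.26, 11.2 and 16.2 CPM in the sham AAV-null nerves. It was lower on average in crushed nerves, with overlap between groups, and did not pass (log2 fold change -0.95 ± 0.42 SE, edgeR, adjusted p = 0.104). Adamts2, Adamts5, Adamts9 and Adamts10 did not pass either, at log2 fold changes of 0.43 to 0.71. The proteins of the Adamtsl family resemble ADAMTS proteases without the enzyme, and 1 of these rose: Adamtsl3 had 22.8 ± 2.54 CPM in crush AAV-null and 12.6 ± 4.93 CPM in sham AAV-null nerves (SD, n = 5; log2 fold change 0.86 ± 0.26 SE, edgeR, adjusted p = 0.0161). Adamtsl2, Adamtsl4 and Adamtsl5 did not pass, at log2 fold changes of -0.29 to -0.13. Beside the genes that fell, all 8 oligodendrocyte genes used here fell (Mbp, Mog, Mag, Mobp, Cnp, Mal, Opalin and Ermn), with a summed level of 12503 to 18411 CPM in crush AAV-CNTF, 14955 to 21855 CPM in crush AAV-null and 37503 to 48586 CPM in sham AAV-null nerves. Of the 9 astrocyte genes 8 fell in crush AAV-null and 6 in crush AAV-CNTF against sham AAV-null nerves. Their sum was 5414 to 6738 CPM in crush AAV-CNTF, 4936 to 6569 CPM in crush AAV-null and 8199 to 9101 CPM in sham AAV-null nerves. Of the 7 genes of NG2 glia 2 rose and 3 fell in both comparisons with sham nerves. Of the 6 genes listed for the axons of retinal ganglion cells 4 fell and 2 rose in crush AAV-null against sham AAV-null nerves. In crush AAV-CNTF against sham AAV-null nerves 4 fell and 1 rose. Their sum was 35.3 to 50.3 CPM in crush AAV-CNTF, 32.0 to 65.5 CPM in crush AAV-null and 152 to 186 CPM in sham AAV-null nerves. The part of these cells in the levels of Adamts4, Adam22 and Adamtsl1 was not tested.

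Other genes of extracellular proteolysis were described from 4 lists. Of 25 tested genes of plasminogen activation, serpins, other secreted proteases and regulators, 12 rose and 3 fell in crush AAV-null against sham AAV-null nerves, at a median log2 fold change of 0.66. Over all genes tested, against which this and the next 3 lists are to be read, 14.7% rose and 12.9% fell, at a median of 0.00. Genes of these lists reached the table by the same level rule, and the group through which each qualified is not given here. A gene near 0 in sham nerves, such as Fap, was thus favoured to be higher after crush by the listing itself. Fap, a cell surface serine protease of activated fibroblasts, had 4.12 ± 2.16 CPM in crush AAV-null and 0.0741 ± 0.141 CPM in sham AAV-null nerves (SD, n = 5; log2 fold change 5.60, edgeR, adjusted p = 7.07e-05). Plau, urokinase plasminogen activator, had 34.5 ± 16.8 CPM in crush AAV-null and 4.92 ± 1.78 CPM in sham AAV-null nerves (SD, n = 5; log2 fold change 2.81, edgeR, adjusted p = 1.39e-06). Klk8, a secreted serine protease of neural tissue, had 29.7 ± 8.99 CPM in crush AAV-null and 4.26 ± 2.68 CPM in sham AAV-null nerves (SD, n = 5; log2 fold change 2.80, edgeR, adjusted p = 1.11e-05). These 3 rose most. Lrp1, an endocytic receptor that clears proteases with their inhibitors, had the highest CPM in the list, at 1987 ± 168 CPM in crush AAV-null and 1254 ± 116 CPM in sham AAV-null nerves (SD, n = 5; log2 fold change 0.66, edgeR, adjusted p = 2.07e-05). It rose too, and the 3 that fell were Papln, Pcsk6 and Reck, the last a membrane-anchored inhibitor of MMPs.

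The list of partners of Adam10 and Adam17 was mixed: 2 of 9 rose and 2 fell, at a median log2 fold change of -0.25. Rhbdf2, the iRhom2 protein that carries Adam17 to the surface in immune cells, had 16.8 ± 11.3 CPM in crush AAV-null and 4.02 ± 2.03 CPM in sham AAV-null nerves (SD, n = 5; log2 fold change 2.06, edgeR, adjusted p = 6.31e-04). Tspan15, a tetraspanin that directs Adam10 to cadherins, had 41.1 ± 9.78 CPM in crush AAV-null and 73.9 ± 14.1 CPM in sham AAV-null nerves (SD, n = 5; log2 fold change -0.85, edgeR, adjusted p = 6.62e-04). Rhbdf1, the related iRhom1, had 30.5 ± 8.76 CPM in crush AAV-null and 15.9 ± 1.96 CPM in sham AAV-null nerves (SD, n = 5; log2 fold change 0.94, edgeR, adjusted p = 0.00124). Both iRhoms rose and Tspan15 fell. Tspan5, another tetraspanin partner of Adam10, had the highest CPM in the list over all 15 libraries, at 76.4 ± 14.2 CPM in crush AAV-null and 105 ± 8.62 CPM in sham AAV-null nerves (SD, n = 5; log2 fold change -0.46, edgeR, adjusted p = 0.0139); it fell too.

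Among 26 tested proteins that ADAM sheddases are known to cut 10 rose and 5 fell, at a median log2 fold change of 0.35. Trem2, a lipid receptor of microglia and macrophages, had 164 ± 29.7 CPM in crush AAV-null and 31.1 ± 5.01 CPM in sham AAV-null nerves (SD, n = 5; log2 fold change 2.40, edgeR, adjusted p = 9.15e-10). Tnfrsf1b, a receptor for tumor necrosis factor, had 55.7 ± 7.48 CPM in crush AAV-null and 11.8 ± 2.82 CPM in sham AAV-null nerves (SD, n = 5; log2 fold change 2.23, edgeR, adjusted p = 5.94e-08). Mertk, a receptor for the uptake of dying cells, had 67.3 ± 14.2 CPM in crush AAV-null and 26.4 ± 1.16 CPM in sham AAV-null nerves (SD, n = 5; log2 fold change 1.35, edgeR, adjusted p = 5.08e-07). These 3 rose most. App, the amyloid precursor protein, had the highest CPM in the list over all 15 libraries, at 1260.3 ± 84.7 CPM in crush AAV-null and 1621 ± 147 CPM in sham AAV-null nerves (SD, n = 5; log2 fold change -0.36, edgeR, adjusted p = 0.00308); it fell, as did Aplp1, Aplp2, Cdh2 and Prnp.

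Of 13 tested substrates and cofactors of ADAMTS proteases 9 rose and the other 4 did not pass, at a median log2 fold change of 1.35. Fbn2, a fibrillin of microfibrils, had 29.3 ± 6.21 CPM in crush AAV-null and 3.76 ± 1.80 CPM in sham AAV-null nerves (SD, n = 5; log2 fold change 2.96, edgeR, adjusted p = 1.95e-06). Thbs1, thrombospondin 1, had 78.7 ± 22.2 CPM in crush AAV-null and 14.8 ± 7.15 CPM in sham AAV-null nerves (SD, n = 5; log2 fold change 2.41, edgeR, adjusted p = 1.42e-05). Ncan, the proteoglycan neurocan, had 128 ± 41.9 CPM in crush AAV-null and 29.4 ± 3.52 CPM in sham AAV-null nerves (SD, n = 5; log2 fold change 2.13, edgeR, adjusted p = 2.40e-07). These 3 rose most. Col1a1, with the highest CPM of the list, had 2357 ± 526 CPM in crush AAV-null and 616 ± 222 CPM in sham AAV-null nerves (SD, n = 5; log2 fold change 1.94, edgeR, adjusted p = 6.69e-06) and rose too. The collagens of this list also belong to the fibroblast list, and Cspg4 to the NG2 glia list.

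The second comparison, crush AAV-CNTF against crush AAV-null, asks whether the cytokine altered the response to injury. None of the 44 genes passed (edgeR, adjusted p under 0.05), and 2 had an unadjusted p under 0.05; limma-voom, limma on the FPKM values and DESeq2 also called 0 of the 44. Over all genes tested 0.0564% passed, 0.0423% higher and 0.0141% lower in crush AAV-CNTF nerves, so the count of 0 does not set the 44 genes apart from the rest. The median log2 fold change was 0.05 over the 44 genes.

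Adam8 had the smallest p. With the values given above, its log2 fold change was -1.20 ± 0.42 (SE, edgeR, adjusted p = 0.427; unadjusted p = 0.00956), and the 2 groups overlapped. Without crush AAV-null replicate 3 it was -0.69 (edgeR, adjusted p = 0.732). Mmp12 was at -1.29 ± 0.68 (SE, edgeR, adjusted p = 0.698) with all libraries and -0.56 without that library (edgeR, adjusted p = 0.926). Mmp14 was next to Adam8, at 0.36 ± 0.15 (SE, edgeR, adjusted p = 0.548; unadjusted p = 0.0250), with crush AAV-CNTF replicates 3 and 5 above every crush AAV-null nerve. Adamts4 had 128 ± 14.9 CPM in crush AAV-CNTF and 152 ± 19.7 CPM in crush AAV-null nerves (SD, n = 5; log2 fold change -0.25 ± 0.12 SE, edgeR, adjusted p = 0.651). Adam15 had 112 ± 9.04 CPM in crush AAV-CNTF and 128 ± 16.5 CPM in crush AAV-null nerves (SD, n = 5; log2 fold change -0.19 ± 0.10 SE, edgeR, adjusted p = 0.71), while on the FPKM scale the direction turned, at 0.12 under both pseudocounts.

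A missed threshold does not show that levels were equal, and the precision differed widely among the genes. For Timp1 the 95% interval of the log2 difference ran -0.26 to 0.34, for Timp2 -0.21 to 0.18 and for Adam10 -0.20 to 0.21. For these 3 abundant genes a change of 1.5-fold lies outside the interval. For Mmp12 it ran -2.77 to 0.18, for Mmp13 -3.65 to 0.98 and for Mmp25 -0.86 to 3.45, intervals that still hold a lower level of several fold in crush AAV-CNTF nerves for Mmp12 and Mmp13 and a higher one for Mmp25.

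**Figure D5:**
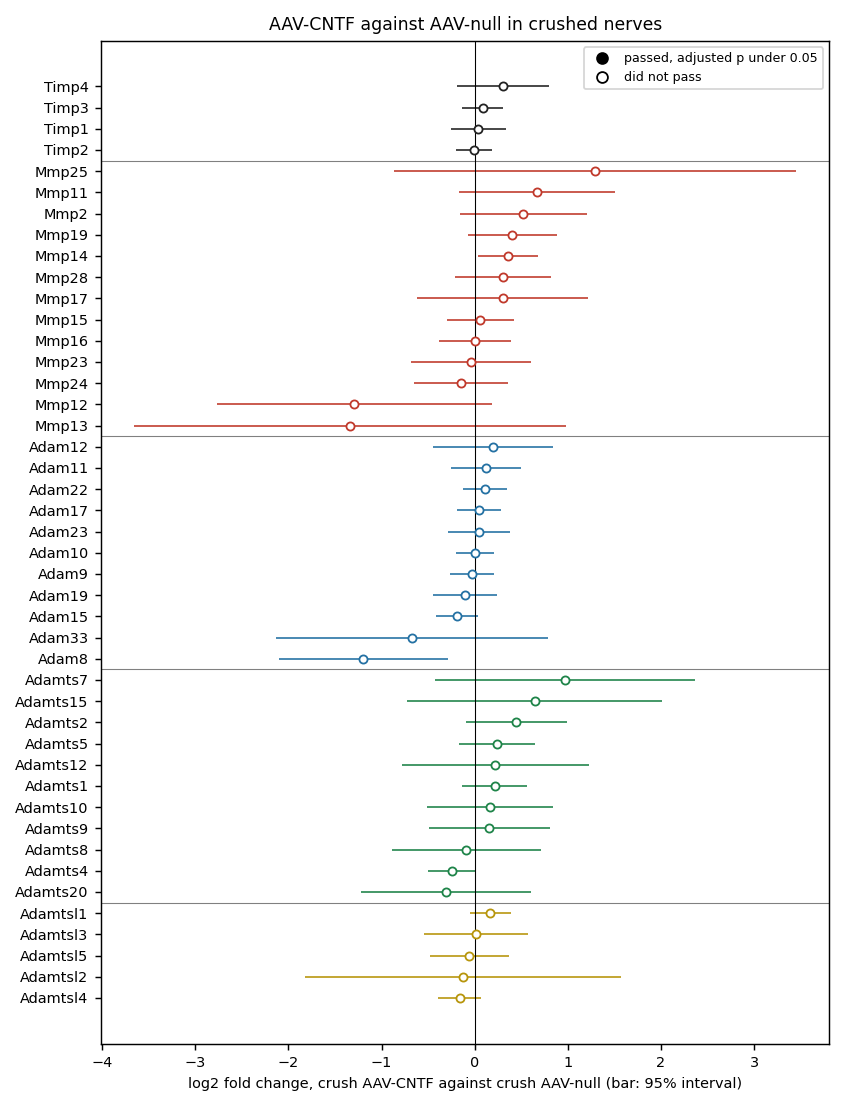
Log2 fold change of crush AAV-CNTF against crush AAV-null nerves for the 44 genes with 95% intervals; all points are open, since no gene passed. The intervals of Timp1, Timp2, Timp3 and Adam10 are narrow around 0, and those of Mmp25, Mmp13 and Mmp12 span more than 2 log2 units.

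The third comparison, crush AAV-CNTF against sham AAV-null, uses the same sham nerves as the first, so the 2 are set side by side and not counted as separate evidence. Here 26 of the 44 genes rose and 5 fell, or 59.1% and 11.4%, against 17.0% and 14.3% of all genes tested (31.3% in either direction). The median log2 fold change was 0.65. The log2 fold change of Timp1 was 2.66 ± 0.15 (SE, edgeR, adjusted p = 1.26e-10), that of Adam12 2.67 ± 0.32 (SE, edgeR, adjusted p = 1.78e-06) and that of Adam8 4.63 ± 0.52 (SE, edgeR, adjusted p = 8.04e-07). For Mmp12 it was 3.15 ± 0.76 (SE, edgeR, adjusted p = 0.00287), and Mmp13 was at least 61.9-fold higher than the sham floor and at least 34.7-fold higher without crush AAV-CNTF replicate 6, with crush AAV-CNTF replicate 2 at 0 like the sham nerves. Limma-voom with sample weights did not call Mmp12 or Mmp13 in this comparison (adjusted p = 0.0893 and 0.102). Without sham AAV-null replicate 3 the log2 fold change of Mmp12 was 3.89 (edgeR, adjusted p = 0.00108).

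Some genes not called above by edgeR passed here, although none of the 44 passed the direct test between the 2 crushed groups. Of these, Mmp25 and Adamts7 met the listing level in the crush AAV-CNTF group only, with 4 libraries at 1 FPKM or more there, against 0 for Mmp25 and 2 for Adamts7 in crush AAV-null and 0 for both in sham nerves, so that the listing favoured a call here over one in the first comparison. The procollagen peptidase Adamts2 had 90.0 ± 38.6 CPM in crush AAV-CNTF and 49.2 ± 12.9 CPM in sham AAV-null nerves (SD, n = 5; log2 fold change 0.87 ± 0.25 SE, edgeR, adjusted p = 0.0106). The aggrecanase Adamts5 had 41.6 ± 13.2 CPM in crush AAV-CNTF and 25.7 ± 3.85 CPM in sham AAV-null nerves (SD, n = 5; log2 fold change 0.69 ± 0.19 SE, edgeR, adjusted p = 0.00777). The proteoglycan-cutting Adamts9 had 18.3 ± 4.28 CPM in crush AAV-CNTF and 10.1 ± 4.41 CPM in sham AAV-null nerves (SD, n = 5; log2 fold change 0.86 ± 0.30 SE, edgeR, adjusted p = 0.0342). For genes given above by library, the log2 fold change was 2.36 ± 0.67 (SE, edgeR, adjusted p = 0.0101) for Adamts7, 2.29 ± 0.66 (SE, edgeR, adjusted p = 0.0114) for Adamts15 and -1.26 ± 0.42 (SE, edgeR, adjusted p = 0.0278) for Adamts20. Since Adamts20 met the listing level in sham nerves only, the listing favoured its fall.

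Of the MMPs in this set, the log2 fold change was 0.89 ± 0.22 (SE, edgeR, adjusted p = 0.00367) for Mmp19, 1.37 ± 0.43 (SE, edgeR, adjusted p = 0.0186) for Mmp17 and 3.41 ± 1.09 (SE, edgeR, adjusted p = 0.0205) for Mmp25. By FPKM, as given above, the crush AAV-null nerves were also above all sham nerves for Mmp19. Adamtsl4, which binds fibrillin, had 126 ± 12.1 CPM in crush AAV-CNTF and 172 ± 21.3 CPM in sham AAV-null nerves (SD, n = 5) and fell (log2 fold change -0.45 ± 0.11 SE, edgeR, adjusted p = 0.00267). The 13 genes that did not pass, Timp3 and Timp4 among them, had log2 fold changes of -0.34 to 0.82. Single libraries decided several of these calls. Adamts15 did not pass without crush AAV-CNTF replicate 5 (1.62, edgeR, adjusted p = 0.0634), the library highest in the fibroblast, endothelial and pericyte sums. Mmp17 did not pass without crush AAV-CNTF replicate 2 (1.12, edgeR, adjusted p = 0.0671), nor Mmp25 without replicate 4 (3.01, edgeR, adjusted p = 0.0591). Without sham AAV-null replicate 2 the log2 fold change of Mmp25 was 5.55 (edgeR, adjusted p = 0.00102). Adamts9 and Adamts20 lost their calls without any one of 6 and of 5 libraries, with adjusted p values of 0.0565 to 0.0885 for Adamts9 and 0.0585 to 0.0727 for Adamts20. Among genes that passed in both comparisons, Adamts8 lost its call here without crush AAV-CNTF replicate 2 (edgeR, adjusted p = 0.0553) and Mmp16 without crush AAV-CNTF replicate 6 (edgeR, adjusted p = 0.0614). By limma on log2(FPKM + 0.5) 10 of the 31 genes called here did not pass: Adam10, Adam22, Adamts2, Adamts15, Adamts20, Adamtsl1, Adamtsl3, Adamtsl4, Mmp13 and Mmp16, with adjusted p values of 0.0613 to 0.961.

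The authors' deposited table also holds their own calls, which leave out some of the genes with an adjusted p under 0.05. There, in the authors' deposited table, 15 of the 44 genes were called up and 2 down in crush against sham nerves, and 23 had an adjusted p under 0.05. Unlike in the edgeR fit, Adamts15 was among those called up in crush AAV-null nerves (log2 fold change 1.65, the authors' DESeq2, adjusted p = 0.0124). Adamts5 had an adjusted p of 0.0401 there (the authors' DESeq2) without a call. For CNTF against sham the authors' deposited table called 22 up and 3 down, and for CNTF against null it called none, with no adjusted p under 0.05.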

How the data were processed

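Per the labels, total RNA of optic nerves was depleted of ribosomal RNA and sequenced; 2 library kits are named (Nugen AnyDeplete and TruSeq Stranded Total), without saying which one was used for each library. The tools were, per the submitters' processing notes, Trimmomatic 0.32, STAR 2.5.3a, RSEM 1.2.31, R 3.2.3 and DESeq2, with mm10. The authors deposited 1 table of 14237 genes with an RSEM expected count and an FPKM value for each gene and library, per the file headers. The deposited table also gives, for each comparison, log2 fold changes, adjusted p-values and the authors' calls from DESeq2. Totals were 19856705 to 29558299 expected counts per library, so low genes carry most of the counting error. No source used here states the strand setting of the counting.

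Expected counts, of which 13.7% to 18.3% per library were not whole, were rounded. edgeR 4.0.16 under R 4.3.3 then fitted them (TMM, filterByExpr by group, glmQLFit and glmQLFTest, 1 model over 15 libraries, 12 residual degrees of freedom). The common biological coefficient of variation was 0.37. Adjustment was by Benjamini-Hochberg over 14194 genes at 0.05. Levels are CPM on TMM library sizes; levels of different genes were compared by FPKM. Only the edgeR fit was tested on simulated counts. Their spread between replicates was set below the common value of these data, and genes of low counts were not among those changed.

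The genes, lists, comparisons and alternatives were chosen with earlier results of these data known. Named with values in every library are the listed Timp genes, each Mmp past the threshold in any comparison, and Adam and Adamts genes (Adamtsl apart) past it with an absolute log2 fold change of at least 1. Other genes past the threshold have group means or a fold, and where none passed the 5 smallest p-values are named. Of each list of related genes up to 3 called genes with the largest fold and the one with the highest CPM are named; values were seen before any other names in lists were chosen. The alternatives comprised DESeq2 1.42.0, RLE size factors, no filter on low counts, a CPM filter (mean of 1 or more), limma-voom with quality weights (limma 3.58.1), limma on log2(FPKM + 0.5) or log2(FPKM + 0.1), a fit to only the 10 libraries compared, a block for the replicate number, and each library left out in turn. Some list members and gene overlaps are not reported here. Promoter windows are from RefSeq and gene positions from GENCODE M21.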

Additional observations from a re-analysis of the deposited data

Results flagged for a closer look

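For the 20 genes given by library, the highest and the lowest nerve of each group of 5 were compared with the other 4, in 59 groups in all (Mmp13 in sham nerves, at 0 throughout, had no range). In 5 of these the gap to the nearest nerve was over 0.71 of the range of the group (Dixon's 95% limit); chance gives about 1 in 20. Mmp12 was at 61.5 CPM in crush AAV-null replicate 3, against 7.37 to 22.8 CPM in the other 4 nerves of that group. Mmp13 was at 12 CPM in the same library, against 0.244 to 3.57 CPM in the others. That library also had the highest macrophage, microglia and dividing-cell sums and the highest Adam8, at 77.8 CPM. Mmp17 was at 14.4 CPM in crush AAV-CNTF replicate 2, against 6.51 to 8.69 CPM in the other nerves of that group. In sham AAV-null nerves, Mmp23 was at 3.76 CPM in replicate 6 against 8.19 to 9.60 CPM in the others, and Mmp25 was at 1.67 CPM in replicate 2 against 0 to 0.375 CPM in the others. The causes were not tested.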

How the results depend on the processing

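The number of the 44 genes called stayed within 1.5 times its value under every alternative run: 19 to 23 in crush AAV-null against sham AAV-null (21 as reported), 0 in crush AAV-CNTF against crush AAV-null, and 21 to 32 in crush AAV-CNTF against sham AAV-null (31 as reported), where limma on FPKM gave the 21. With single libraries left out the counts were 19 to 25, 0 and 28 to 31. Over all genes, crush AAV-CNTF against crush AAV-null had 8 calls as reported, 83 by DESeq2, 5 by limma-voom, 4 by limma on FPKM, 16 with the replicate number as a block and 1 with only the 10 libraries compared; leaving out single libraries gave 1 to 41 (1 without crush AAV-null replicate 2 or 4, and 41 without crush AAV-CNTF replicate 6). The cause was not tested. The FPKM scale shifted the median of all genes by 0.17 (log2) in both comparisons with sham. On that scale 2364 genes were higher and 859 lower in crush AAV-null against sham AAV-null nerves, against 2087 and 1825 by edgeR, and 2588 and 999 in crush AAV-CNTF against sham AAV-null nerves, against 2406 and 2031. Relative to this shift the log2 changes of Adam22 and Adamtsl1 on the FPKM scale are lower than printed. The direction turned for Adam15 in crush AAV-CNTF against crush AAV-null, at 0.12 under both FPKM pseudocounts. Same-numbered nerves were not treated as pairs. Over 15 pairs deviations from the group means correlated at -0.05 to 0.11, and 3 were highest for their own number. All 3 were between crush AAV-CNTF and crush AAV-null nerves (replicates 2, 3 and 5). These correlations cannot settle whether the nerves were paired. With the replicate block 22, 0 and 30 of the 44 genes passed in the 3 comparisons. Genes with few counts, such as Mmp13, Mmp25 and Adamtsl2, limit what could be detected.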
